A study of Mus musculus with 2 samples.

Results

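The genes described here are 10 interferon-gamma induced GTPases: the guanylate-binding proteins (GBPs) Gbp2, Gbp3, Gbp4, Gbp5 and Gbp7, and the immunity-related GTPases (IRGs) Igtp, Irgm1, Irgm2, Iigp1 and Ifi47. They were chosen by symbol, and all 10 were found among the 27998 genes counted in each library. The data were 2 single-cell RNA libraries of live mouse CD45+ cells sorted from subcutaneous B16 melanoma tumors, 1 from mice given h219-LLG, an antagonist antibody against human LAIR1, and 1 from mice given a control antibody. The comparison asked how blocking LAIR1, an inhibitory receptor for collagen on leukocytes, changed the immune cells of the tumor. The mice of both groups were on the C57BL/6 background, were 6 to 8 weeks old, carried a human LAIR1 transgene switched on by Vav-cre and lacked mouse LAIR1. Vav drives Cre in hematopoietic cells, so the transgene was limited to blood-derived cells, and both antibodies were given at 10 mg/kg by vein from day 5, every 4 days for 3 doses, with tumors taken on day 16. How many mice went into each library was not stated, and with 1 library per antibody there is no replicate check. All intervals below are 95% intervals that cover counting error only.

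Interferon-gamma, made mainly by T and NK cells, binds a receptor of the chains IFNGR1 and IFNGR2, which signals through the kinases JAK1 and JAK2. Its targets are switched on through gamma-activated sites (GAS) in their promoters, and IRF1, itself a target, binds interferon-stimulated response elements (ISRE) together with other IRFs. GBPs and IRGs are among the most strongly induced targets in mouse cells and coat the vacuoles of intracellular parasites and bacteria. Type I interferon, acting at the ISRE, induces many of the same genes.

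The 10 genes lie in few places of the mm10 genome. In GENCODE vM21, Gbp5 (chr3:142493978-142522344), Gbp7 (chr3:142530342-142550149), Gbp3 (chr3:142560026-142573209) and Gbp2 (chr3:142620602-142638008) follow each other on the plus strand, and Gbp4 is on the minus strand at chr5:105115767-105139586. The IRG genes Irgm1 (chr11:48861968-48871683, minus strand), Ifi47 (chr11:49076587-49096974), Igtp (chr11:58199556-58207591) and Irgm2 (chr11:58199618-58222782) share 1 chromosome. Igtp and Irgm2 overlap on the same strand, as do Gbp4 with Gbp8 and Gbp9, and Ifi47 with Olfr56. Whether these pairs share exons was not examined. A read in a shared exon could not be given to 1 gene, so the split between Igtp and Irgm2, in particular, is uncertain.

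Promoter windows from 250 bases before to 50 bases after the start in RefSeq (GRCm38.p6) were searched for 8 of the 10 genes, in 9 windows. No window of Gbp4 or Iigp1 was searched, so the counts of genes with a match leave both out. The letters GAAA, 2 bases of any kind and GAAA again, searched on both strands as an ISRE, occurred in windows of 7 genes and in 3.44% of the 32851 windows of all genes. The palindrome TTCNNNGAA, read as a GAS, occurred in 4 of the genes and in 8.30% of all windows. Gbp5, Gbp7, Igtp and Irgm2 held both, against 0.454% of all windows, while the Ifi47 window held neither. Of the 7 members with a match, 5 were picked for display. Levels also differed between the libraries in members not shown, among them Ifi47. The stretches below show how closely the matches sit in the 5 picked members. Matching letters are in capitals, and the stretches run 5′ to 3′ on the strand of the gene. They come from chr3:142620579-142620638 (Gbp2, plus), chr3:142530205-142530317 (Gbp7, plus), chr11:58199486-58199556 (Igtp, plus), chr11:58214877-58214947 (Irgm2, plus) and chr11:48871410-48871475 (Irgm1, minus).
Gbp2: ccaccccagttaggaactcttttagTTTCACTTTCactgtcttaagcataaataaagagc
Gbp7: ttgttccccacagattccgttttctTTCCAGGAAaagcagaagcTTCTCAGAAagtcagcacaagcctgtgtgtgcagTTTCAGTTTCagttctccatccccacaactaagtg
Igtp: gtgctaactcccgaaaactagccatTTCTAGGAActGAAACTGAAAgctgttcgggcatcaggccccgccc
Irgm2: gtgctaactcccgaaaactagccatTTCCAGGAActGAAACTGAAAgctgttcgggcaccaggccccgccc
Irgm1: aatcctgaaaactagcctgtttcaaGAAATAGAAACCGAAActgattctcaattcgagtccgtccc

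Gbp2 held 1 ISRE match read from the opposite strand (TTTCACTTTC). Gbp7 held 2 GAS matches and then 1 ISRE match on the opposite strand. In Igtp and Irgm2 a GAS match and an ISRE match stood side by side in nearly the same letters, from position -45 in Igtp and from position -75 in Irgm2 counted from the start. Laid over each other at the best single offset, without gaps, the 2 windows had the same letter at 184 of 270 bases (68.1%). A comparison with gaps was not made. In Irgm1 2 ISRE matches overlapped, from positions -30 and -24. A match describes the letters of the window and does not show that a factor binds there.

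The h219-LLG library held 8807 barcodes and 48834592 unique molecular identifiers (UMIs, each standing for 1 captured RNA molecule), and the control library held 6133 barcodes and 40339654 UMIs. After filters and removal of likely doublets 6909 and 5332 cells were kept, and 13 barcode sequences occurred in both libraries. Cells with 10% or more mitochondrial UMIs made up 15.2% of barcodes in the h219-LLG library and 8.17% in the control library. Cells were assigned to 17 gates by UMIs of marker genes, of which 9 held at least 50 cells in each library. Of the kept cells, 1712 and 1393 met no gate, and 144 and 130 met gates of more than 1 lineage and were set aside. The gate meant to hold experienced CD8 T cells went against its name: at least 1 UMI of Lef1 was seen in 86.8% and 85.2% of its cells, and of Cd44 in 17.2% and 21.4%. It is called by its rule, CD8 Nkg7/Ccl5 (at least 2 UMIs of S100a4, Cxcr6, Nkg7 or Ccl5).

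Across the gates, the 10 GTPases were highest in T cells and lowest in melanoma cells. Levels are given as counts per 1000000 UMIs of the gate (CPM). The assay counts molecules by their 3′ ends, so levels are not divided by gene length. Over all kept cells the GTPases had 13046 UMIs in the h219-LLG library and 15670 in the control library, or 320 and 440 CPM. In the control library the CD4 naïve gate was highest at 770 CPM (interval 742 to 799), followed by CD8 naïve cells at 719, regulatory T cells at 679, experienced CD4 cells at 566 and CD8 Nkg7/Ccl5 cells at 564. The intervals of the CD4 and CD8 naïve gates overlapped, as did those of the next pair. The regulatory T cell gate lay above the experienced CD4 gate beyond counting error.

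**Figure D1:**
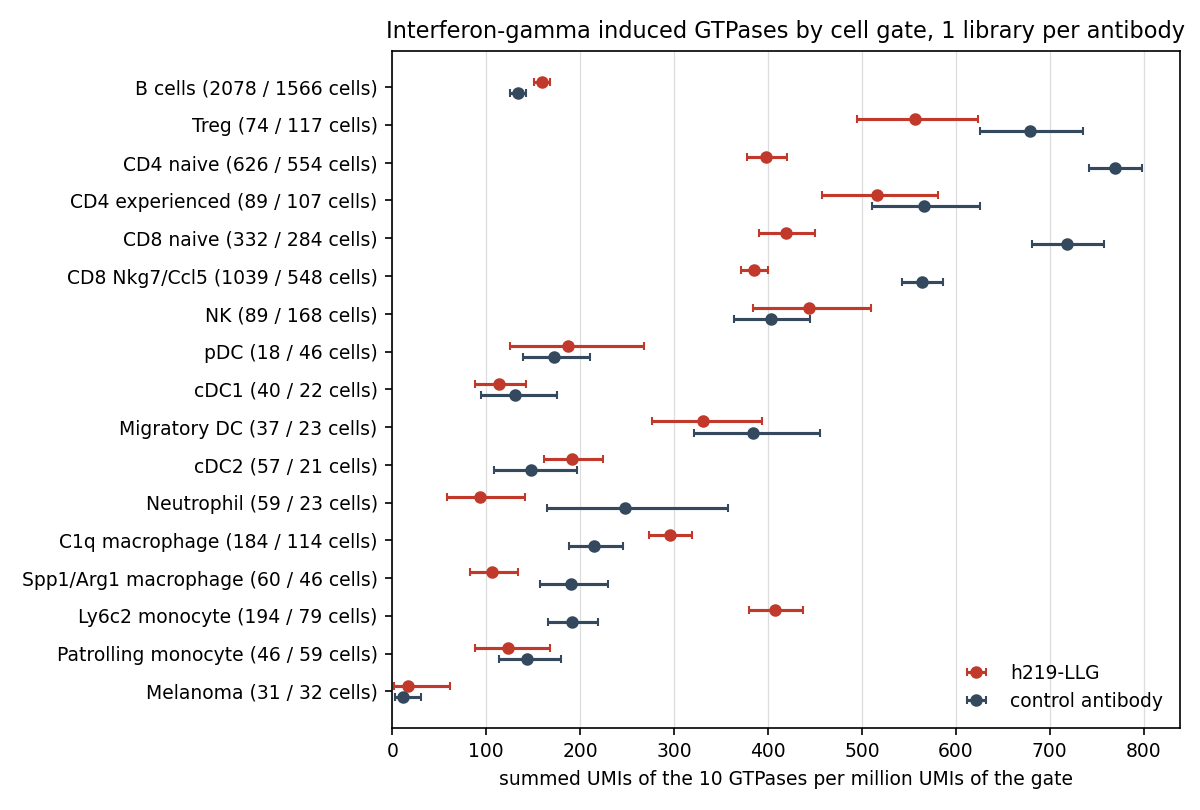
Summed level of the 10 GTPases in CPM of each gate (x axis) for 17 gates, with h219-LLG in red and the control antibody in dark, 1 library each. Bars are exact 95% Poisson intervals. The CD4 naïve gate is at 398 and 770 CPM, the Ly6c2 monocyte gate at 408 and 191 CPM, and the melanoma gate at 17.0 and 11.8 CPM.

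In the h219-LLG library the order was different. Regulatory T cells were highest at 556 CPM (interval 495 to 624), then experienced CD4 cells at 516 and NK cells at 444, and no neighbors among the 9 highest gates had intervals apart. The CD4 naïve gate, first in the control library, was the sixth at 398 CPM. Ly6c2 monocytes, at place 10 in the control library with 191 CPM, were the fifth with 408 CPM. B cells were low in both libraries, at 159 and 134 CPM. The melanoma gate held 2 GTPase UMIs in 31 cells and 4 in 32 cells, all 4 of them in 1 cell.

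The make-up of these UMIs differed by cell type. Ifi47, an IRG of the effector class that loads onto parasite vacuoles, and Igtp, a regulatory IRG that holds effector IRGs inactive on the membranes of the cell, led in naïve T cells of the control library. In the CD4 naïve gate of the control library Ifi47 had 639 UMIs and Igtp 628, against 37 of Gbp3. In the h219-LLG library Ifi47 led with 316 UMIs, and Gbp4 (257) stood above Igtp (209). Gbp3, a GBP of the chromosome 3 cluster, took 14.3% of the GTPase UMIs in h219-LLG B cells and 14.3% in control Ly6c2 monocytes, but 1.15% and 1.29% in CD4 naïve cells. Gbp3 was the 1 member whose level did not follow the others over the 18 gate and library points of the 9 large gates (Pearson r = -0.06 with the sum of the others, on log2 CPM). For the other 9 members r lay between 0.58 for Gbp4 and 0.90 for Ifi47. These points share libraries and are a description only.

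Dendritic cells and plasmacytoid dendritic cells (pDCs) had make-ups of their own, on few cells. In pDCs Ifi47 and Gbp4 held 47 and 29 of 93 UMIs in the control library and 12 and 7 of 29 in the h219-LLG library, and each of Gbp2, Gbp3, Gbp5 and Gbp7 had at most 1 UMI per library. In migratory dendritic cells Gbp5, a GBP that promotes inflammasome assembly, and Gbp2, which is recruited to Toxoplasma vacuoles, led with 41 and 37 of 128 UMIs under h219-LLG and 30 and 27 of 132 under the control antibody. These gates held 18 and 46 pDCs and 37 and 23 migratory dendritic cells.

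**Figure D2:**
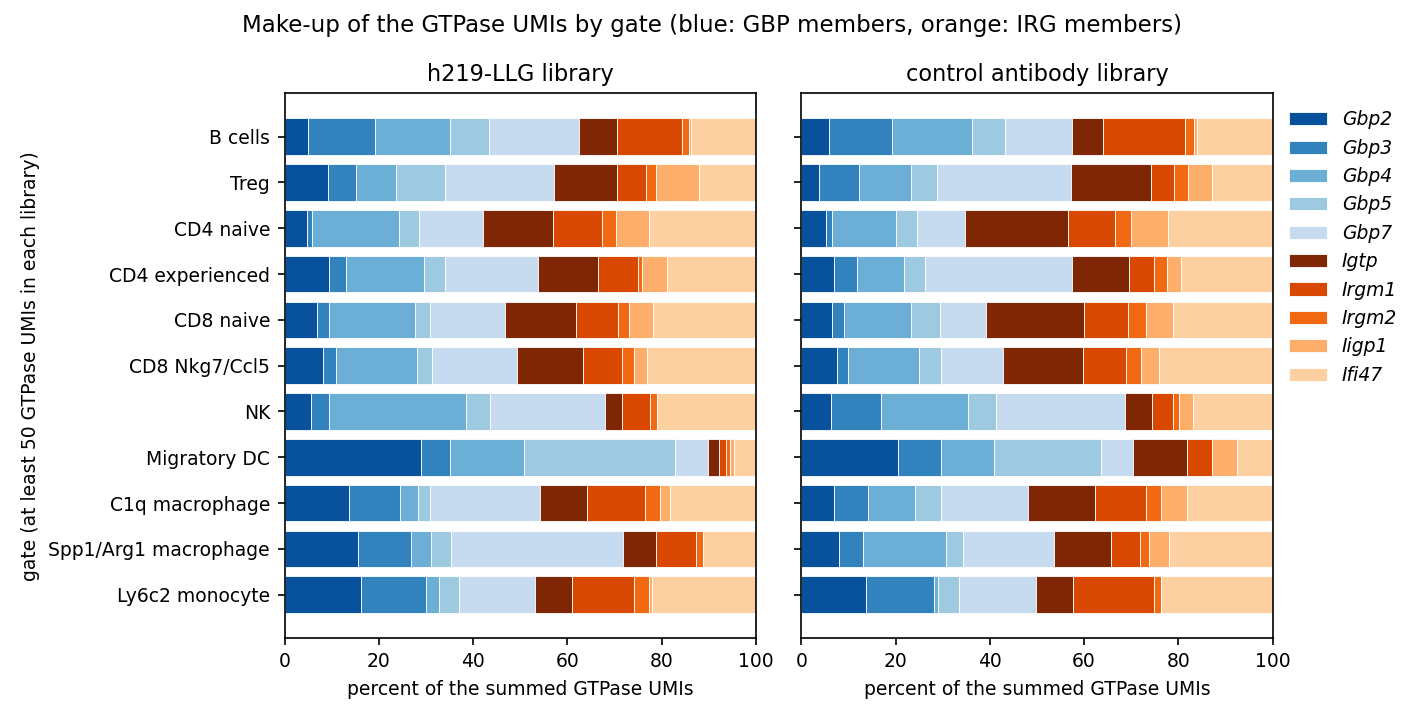
Share of the summed GTPase UMIs held by each gene (x axis, percent) in each gate with at least 50 GTPase UMIs in both libraries, for the h219-LLG library (left) and the control library (right). GBP genes are in blue and IRG genes in orange; Igtp takes 22% of the UMIs of control CD4 naïve cells, and Gbp5 takes 32% of those of h219-LLG migratory dendritic cells.

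Iigp1, the effector IRG also known as Irga6, had most of its UMIs among gated cells in T cells. In the CD4 naïve gate it had 100 UMIs in the h219-LLG library and 222 in the control library, and in the CD8 Nkg7/Ccl5 gate 80 and 99. In the B cell gate, with 7945925 and 7094872 UMIs in all, it had 5 and 6. In NK cells it had 0 and 12 UMIs, the 0 allowing up to 6.66 CPM and the 12 lying in 2 cells. In Ly6c2 monocytes it had 5 and 0, the 0 allowing up to 2.83 CPM. These are counts, not levels, and the gates differ in total UMIs. The CD8 Nkg7/Ccl5 gate held 7225214 and 4650256 UMIs in all. C1q macrophages, whose Iigp1 UMIs are given below, held 2221187 and 1022163. The gene lies at chr18:60376027-60392634 in mm10.

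In CD4 naïve T cells every GTPase was lower in the h219-LLG library. The gate held 626 cells and 1397 GTPase UMIs in the h219-LLG library and 554 cells and 2871 GTPase UMIs in the control library. The ratio of h219-LLG to control was 0.517 (interval 0.485 to 0.552). The gate's all-gene list was made of the 7292 genes with at least 50 UMIs over both libraries, of which 5.98% were lower by at least 1.5-fold and 8.8% were higher. All 10 GTPases had that many UMIs, and 8 were lower by at least 1.5-fold and 0 higher. Their median log2 ratio was -1.03, against 0.04 for all genes.

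Summed by family, the difference was larger in the IRGs than in the GBPs, though the ratios of single members overlapped between the families. Igtp had 59.6 CPM in the h219-LLG library and 168 CPM in the control library, a ratio of 0.354 (interval 0.301 to 0.414). Irgm2, a regulatory IRG, had 11.1 and 26.3 CPM (ratio 0.423). Both stood below the ratios of the other members, though the split of reads between these overlapping genes is uncertain. Irgm1, the regulatory IRG tied to autophagy and to lymphocyte survival under interferon-gamma, had 41.3 and 77.5 CPM (ratio 0.534), and Iigp1 28.5 and 59.5 CPM (ratio 0.479). Ifi47 had 90.1 and 171 CPM (ratio 0.526). The 5 IRGs together gave a ratio of 0.459 (interval 0.422 to 0.498) and the 5 GBPs 0.628 (interval 0.567 to 0.697), intervals that did not overlap.

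Among the GBPs of CD4 naïve cells, Gbp2 had 18.8 and 39.4 CPM (ratio 0.477), Gbp5 16.8 and 33.8 CPM (ratio 0.498) and Gbp3 4.56 and 9.92 CPM (ratio 0.460, on 16 and 37 UMIs). All of these ratios were below those of the IRGs Irgm1 and Ifi47. With each cell thinned to 1000 UMIs the Gbp3 ratio turned to 1.48. Gbp4, with 73.3 and 105 CPM (ratio 0.697), and Gbp7, with 54.2 and 78.6 CPM (ratio 0.690), were lower by less than 1.5-fold. Both were the GBPs with the most UMIs in this gate and so weighed most in the GBP sum. Gbp7 is a GBP that supports assembly of the phagocyte NADPH oxidase.

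**Figure D3:**
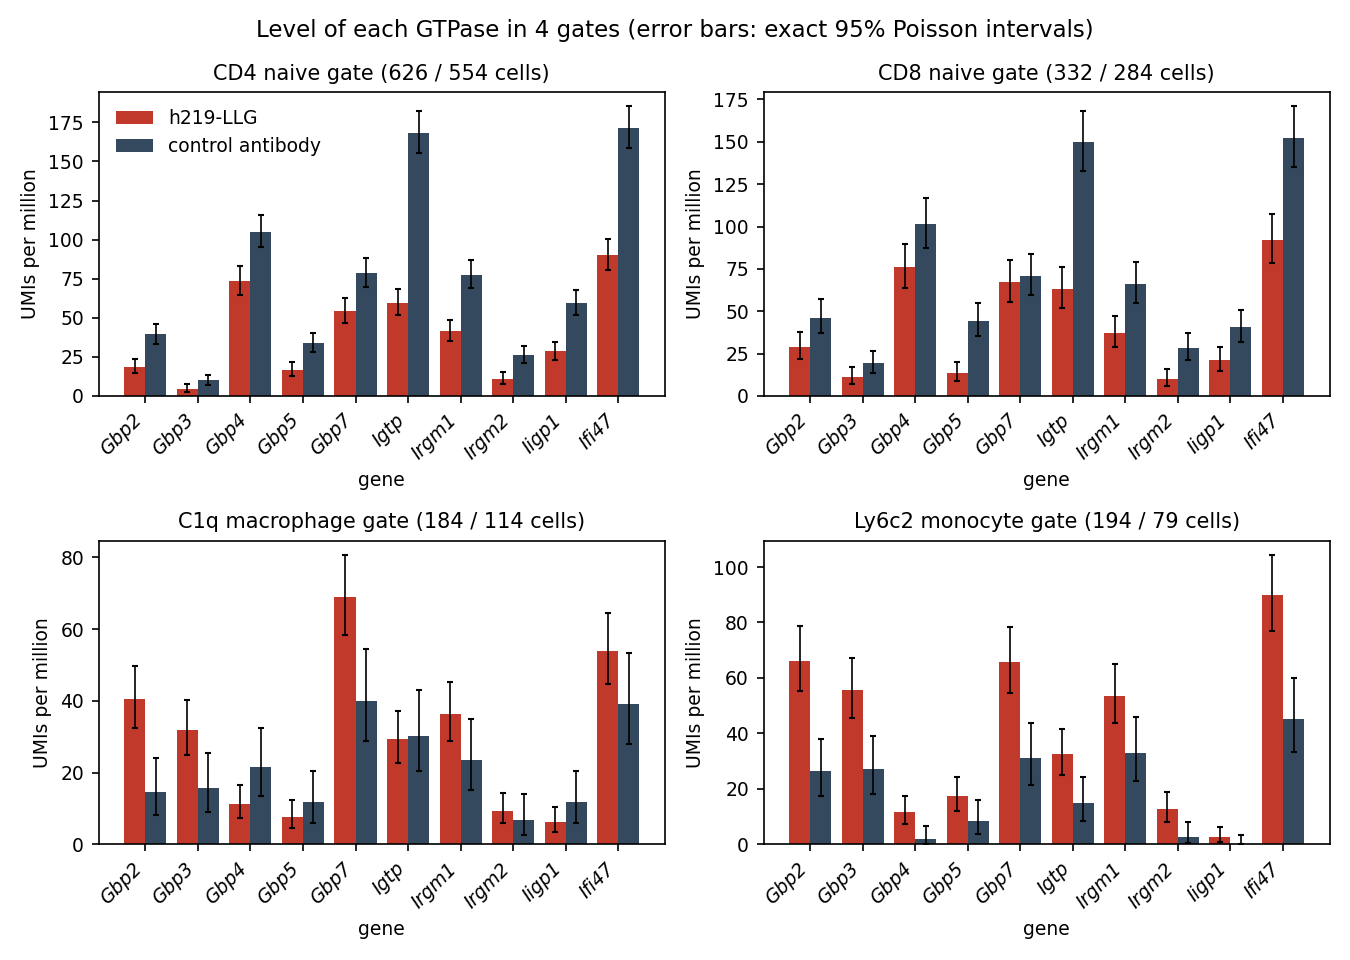
Level in CPM (y axis, each panel on its own scale) of the 10 GTPases in the CD4 naïve, CD8 naïve, C1q macrophage and Ly6c2 monocyte gates, with h219-LLG in red and the control antibody in dark. Error bars are exact 95% Poisson intervals. Igtp stands at 59.6 and 168 CPM in CD4 naïve cells and Gbp2 at 66.2 and 26.4 CPM in Ly6c2 monocytes.

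CD8 naïve T cells gave nearly the same picture. The gate held 332 cells with 757 GTPase UMIs in the h219-LLG library and 284 cells with 1369 in the control library, or 420 and 719 CPM (ratio 0.584, interval 0.533 to 0.638). Of the 10 GTPases 8 were lower by at least 1.5-fold and 0 higher, against 7.17% and 8.08% of the 5691 genes in the gate. Their median log2 ratio was -0.82, against 0.02 for all genes.

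The order of the members differed in part from that of CD4 cells. Gbp5 gave the lowest ratio, at 13.3 and 44.1 CPM (0.302, interval 0.183 to 0.480), then Irgm2 at 9.98 and 28.4 CPM (0.352) and Igtp at 63.2 and 150 CPM (0.422). Iigp1 (0.521), Irgm1 (0.561), Gbp3 (0.571), Ifi47 (0.604) and Gbp2 (0.624) were the others below the fold. Gbp7 had 67.1 and 70.9 CPM (ratio 0.946, interval 0.734 to 1.22), and Gbp4 75.9 and 101 CPM (ratio 0.749). In the cells without a UMI of Ifit1, Ifit2 or Ifit3 the ratio of Gbp2 was 1.02.

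The CD8 Nkg7/Ccl5 gate held 1039 and 548 cells with 2786 and 2623 GTPase UMIs, or 386 and 564 CPM (ratio 0.684, interval 0.648 to 0.721). Gbp5 (0.448), Iigp1 (0.520), Irgm2 (0.551), Igtp (0.569), Irgm1 (0.614) and Ifi47 (0.654) were lower by at least 1.5-fold, 6 of 10 members, against 5.51% of 8489 genes. No member was higher, against 7.99% of genes. The other 4 members, all GBPs, were Gbp2 (0.752), Gbp4 (0.777), Gbp3 (0.781) and Gbp7 (0.932). With each cell thinned to 1000 UMIs the Gbp5 ratio turned to 1.21.

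Several quality measures also differed between the libraries in these T cells. The median cell of the CD4 naïve gate had 5572 UMIs in the h219-LLG library and 6628 in the control library, with 4.0% and 3.34% mitochondrial UMIs. At least 1 UMI of Lyz2, a gene of myeloid cells, was seen in 13.1% and 5.78% of CD4 naïve cells and in 11.1% and 3.52% of CD8 naïve cells. The summed level of 5 other myeloid genes in CD4 naïve cells was 157 and 132 CPM, with 0 of the 5 at 0. The part of these measures in the lower GTPase level was not tested.

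In Ly6c2 monocytes the direction was the opposite. The gate held 194 cells with 776 GTPase UMIs in the h219-LLG library and 79 cells with 203 in the control library, or 408 and 191 CPM, a ratio of 2.13 (interval 1.82 to 2.50). The 6 members with at least 50 UMIs were all higher by at least 1.5-fold and 0 lower, against 9.35% and 5.38% of 5710 genes. Members pass this minimum more easily where they are high, so the 4 below it are given too. Gbp5 had 33 and 9 UMIs, Irgm2 24 and 3, Gbp4 22 and 2, and Iigp1 5 and 0.

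Gbp2 had the highest ratio of the 6, with 66.2 CPM in the h219-LLG library and 26.4 CPM in the control library (2.51, interval 1.66 to 3.93). Igtp had 32.6 and 15.1 CPM (ratio 2.16), Gbp7 65.7 and 31.1 (2.11), Gbp3 55.7 and 27.3 (2.04), Ifi47 89.8 and 45.2 (1.99) and Irgm1 53.6 and 33.0 (1.63). The intervals of these 6 ratios overlapped each other. GBPs and IRGs did not differ beyond counting error here, with ratios of 2.27 and 1.99. In this gate the control cells were the deeper ones, with a median of 13165 UMIs against 9478. Under a stricter cell filter (200 to 2500 genes and under 5% mitochondrial UMIs), which left 49 and 7 cells, the summed ratio was 1.46, and Gbp2 (0.321) and Gbp7 (0.578) turned direction. With cells thinned to 1000 UMIs the sum gave 1.72, on 76 and 18 UMIs of all members together. Ifi47, on only a part of these UMIs, turned to 0.458.

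In C1q macrophages the summed level was 296 CPM in the h219-LLG library (657 UMIs in 184 cells) and 215 CPM in the control library (220 UMIs in 114 cells), a ratio of 1.37 (interval 1.18 to 1.61). Gbp2, with 40.5 and 14.7 CPM (ratio 2.76, interval 1.59 to 5.14), Gbp3 (2.04), Gbp7 (1.72) and Irgm1 (1.55) were higher by at least 1.5-fold, 4 of the 6 members with 50 UMIs, against 15.8% of 6294 genes. None of the 6 was lower, against 4.13%. Igtp, with 29.3 and 30.3 CPM, had a ratio of 0.965, and Ifi47 of 1.38. Of the members with fewer UMIs, Gbp4 had 25 and 22 UMIs, Gbp5 17 and 12, Iigp1 14 and 12 and Irgm2 21 and 7, which put the first 3 of these lower in CPM in the h219-LLG library.

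The C1q values rested on few cells. In the control library 81.4% of the GTPase UMIs lay in the 10% of cells richest in them, against 54.0% in the h219-LLG library, and the median cell had 4661 UMIs against 8334.5. The mean over cells of UMIs per 10000, which gives each cell the same weight, gave a ratio of 2.10, and the stricter cell filter, with 69 cells in each library, 3.46. The T cell list of 3 genes, Cd28, Cd5 and Cd6, summed to 86.0 and 61.6 CPM in this gate, against 11 and 6.59 CPM in Ly6c2 monocytes. Their part in the GTPase level of the C1q gate was not tested.

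**Figure D4:**
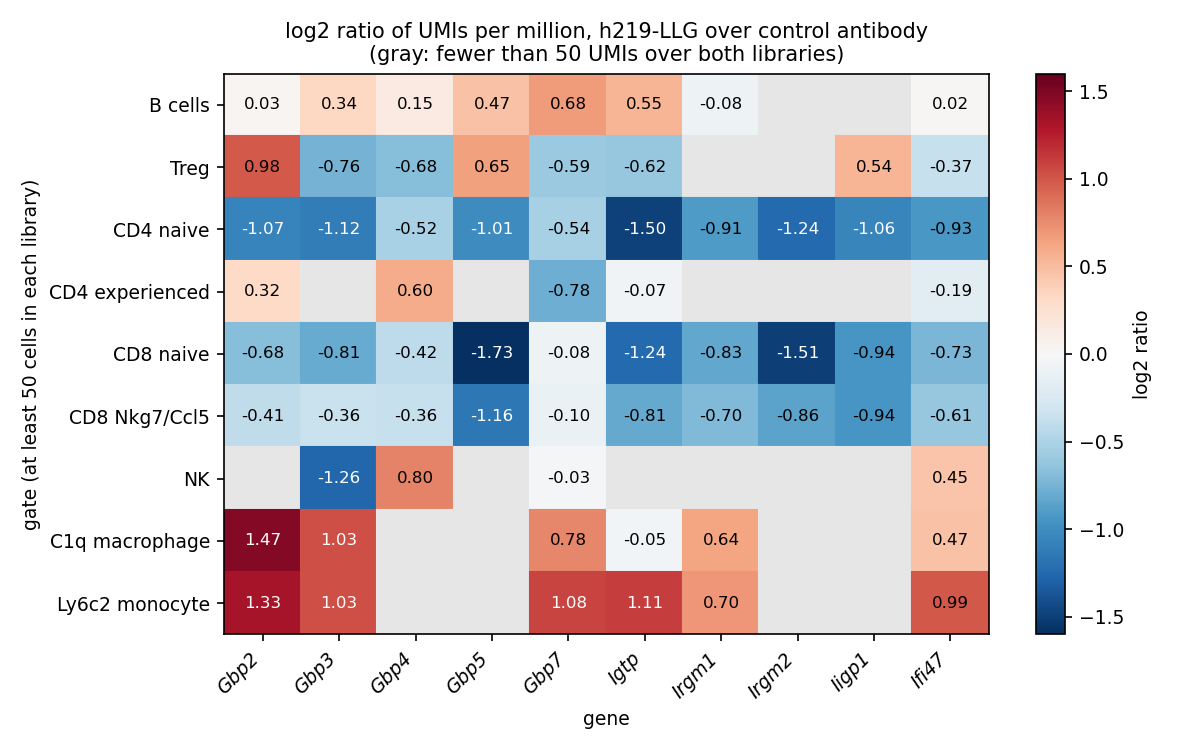
Log2 ratio of CPM, h219-LLG over control, of each GTPase (columns) in the 9 gates with at least 50 cells in each library (rows); red is higher and blue lower in the h219-LLG library, and gray marks fewer than 50 UMIs over both libraries. CD4 naïve cells range from -1.50 for Igtp to -0.52 for Gbp4, and Ly6c2 monocytes from 0.70 for Irgm1 to 1.33 for Gbp2.

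B cells, the largest gate with 2078 and 1566 cells, differed little. The summed level was 159 and 134 CPM (ratio 1.19, interval 1.09 to 1.30), and of the 8 members with 50 UMIs only Gbp7 was past the fold, with 30.6 and 19.0 CPM (ratio 1.61), against 7.52% of 8939 genes higher. No member was lower by the fold, against 4.06%. Igtp (1.46), Gbp5 (1.39), Gbp3 (1.26) and Gbp4 (1.11) came next, and Gbp2 (1.02), Ifi47 (1.02) and Irgm1 (0.947) had ratios close to 1. The 5 GBPs gave 1.29 and the 5 IRGs 1.05.

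Regulatory T cells were mixed. The 74 and 117 cells had 556 and 679 CPM (ratio 0.819, interval 0.711 to 0.943). Of 8 members with 50 UMIs, Gbp2 (50.8 and 25.8 CPM, ratio 1.97) and Gbp5 (1.57) were higher by the fold and Gbp3 (0.591), Gbp4 (0.625), Igtp (0.650) and Gbp7 (0.662) lower, against 10.7% and 12% of 3898 genes. Iigp1 (1.46) and Ifi47 (0.773) lay within the fold. With cells thinned to 1000 UMIs the summed ratio was 1.03 and Gbp3 turned to 1.58. The higher Gbp5 rested on 1 cell: without the cell richest in GTPase UMIs in each library its ratio was 0.936. The cells of this gate also differed in kind, since S100a4 was seen in 48.6% of them in the h219-LLG library and 71.8% in the control library, and Cd44 in 45.9% and 62.4%. The part of this in the ratios was not tested.

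Experienced CD4 cells and NK cells showed no summed difference beyond counting error. In experienced CD4 cells (89 and 107 cells) the ratio was 0.912 (interval 0.778 to 1.07), with Gbp4 (1.51) higher and Gbp7 (102 and 176 CPM, ratio 0.583) lower among 5 members with 50 UMIs, against 9.97% and 7.83% of 3271 genes. The other measured members there were Gbp2 (1.25), Igtp (0.952) and Ifi47 (0.879). In NK cells (89 and 168 cells) the summed ratio was 1.10 (interval 0.924 to 1.31). There Gbp4 was higher at 129 and 74.1 CPM (ratio 1.74), and Gbp3 lower at 17.8 and 42.6 CPM (0.416, on 8 and 42 UMIs), among 4 members, against 7.02% and 9.07% of 3891 genes. Ifi47 (1.37) and Gbp7 (0.983) lay within the fold. Intervals of this width leave room for a difference of up to 1.31-fold in NK cells.

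The smaller myeloid gates are given as levels. Spp1/Arg1 macrophages had 106 CPM in the h219-LLG library and 191 CPM in the control library, on 71 and 114 UMIs, with 30.7% of the control UMIs in 1 cell. Neutrophils had 93.3 and 248 CPM on 22 and 28 UMIs, with 46.4% of the control UMIs in 1 cell. Patrolling monocytes had 123 and 144 CPM, type 1 conventional dendritic cells 113 and 130 CPM and type 2 cells 191 and 148 CPM, and in each of these the intervals of the 2 libraries overlapped.

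The share of cells with a GTPase UMI pointed the same way as the level in naïve T cells, Ly6c2 monocytes and C1q macrophages. In CD4 naïve cells 77.2% had at least 1 UMI in the h219-LLG library and 93.7% in the control library. With each cell thinned to 1000 UMIs the shares were 29.1% (182 of 625 cells) and 50.7% (281 of 554), and 30.1% and 51.4% in CD8 naïve cells. In Ly6c2 monocytes they were 25.3% and 17.7% thinned and 77.8% and 73.4% unthinned, and in C1q macrophages 18.5% and 9.52% thinned and 55.4% and 32.5% unthinned. In regulatory T cells the thinned shares were 47.3% and 45.3% while the level was lower in the h219-LLG library. Thinned share and level also pointed opposite ways, on few cells, in neutrophils, patrolling monocytes, Spp1/Arg1 macrophages, pDCs and type 2 conventional dendritic cells. No gate is known to lack these genes. The melanoma gate, which had the lowest level, had 2 of 31 and 1 of 32 cells with a UMI at median depths of 1240 and 1217 UMIs, and thinned 1 of 17 and 0 of 17, a number too small to set a background.

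Upstream of the GTPases, both chains of the receptor were also lower in naïve T cells of the h219-LLG library. In CD4 naïve cells Ifngr2 had 116 and 243 CPM (ratio 0.476), Jak2 44.5 and 79.9 (0.557), Ifngr1 121 and 216 (0.561) and Irf1 174 and 271 (0.644). Of 7 measured genes of the pathway 4 were lower by the fold and 0 higher, against 5.98% and 8.8% of all genes. The same 4 genes, of 7, were lower in CD8 naïve cells, with ratios from 0.523 for Jak2 to 0.628 for Ifngr2, against 7.17% of all genes. In CD8 Nkg7/Ccl5 cells Ifngr1, Ifngr2 and Irf1 were lower, 3 of 8 against 5.51%. Pathway genes were also lower by the fold in gates whose summed GTPases were not. Among them were Ifngr1 (0.641) in NK cells and Ifngr2 (0.638) in B cells, each 1 of 7, against 9.07% and 4.06% of genes. In regulatory T cells Ifngr1 (0.367), Jak2 (0.433) and Irf1 (0.468) were lower, 3 of 7 against 12%. In experienced CD4 cells Irf1 (0.535), Jak2 (0.644) and Ifng were lower, 3 of 7 against 7.83%. Of these gates, only NK cells had a gene higher, Ifng. In Ly6c2 monocytes Irf1 was higher (89.3 and 51.8 CPM, ratio 1.72), while Ifngr1 had 428 and 366 CPM. In C1q macrophages 0 of 7 was past the fold, against 15.8% of all genes higher and 4.13% lower, and Irf1 had 74.3 and 101 CPM.

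Ifng itself was read mainly in NK cells, experienced CD4 cells, regulatory T cells and CD8 Nkg7/Ccl5 cells. NK cells had 326 CPM in the h219-LLG library (147 UMIs) and 209 CPM in the control library (206 UMIs), a ratio of 1.56 (interval 1.25 to 1.94). Experienced CD4 cells had 114 and 234 CPM (ratio 0.486), and CD8 Nkg7/Ccl5 cells 30.4 and 26.2 CPM. Regulatory T cells had 15.0 and 34.8 CPM, on 8 and 31 UMIs. Experienced CD4 cells thus stood near NK cells in the control library and below them in the h219-LLG library. Ly6c2 monocytes had no Ifng UMI in either library, and CD4 naïve cells had 8 and 2.

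Further GTPases of the same families were found for 12 of 14 symbols listed. In CD4 naïve cells Gbp6 (8.27 and 26.8 CPM, ratio 0.308), Tgtp2 (0.476) and Tgtp1 (0.508) were lower, 3 of 7 measured against 5.98% of all genes. None was higher, against 8.8%. In CD8 naïve cells Gbp6 (0.312), Gbp9 (0.601), Tgtp2 (0.627) and Tgtp1 (0.642) were lower, 4 of 6 against 7.17% of all genes. Tgtp1 and Tgtp2 are near-identical T cell GTPases of the IRG family and Gbp6 was counted under 2 gene identifiers, so their reads may be split or lost. In C1q macrophages Gbp9 (23.4 and 8.80 CPM, ratio 2.66) and 9930111J21Rik2 (1.72) were higher, 2 of 2 against 15.8% of all genes. In Ly6c2 monocytes 0 of 2 were, against 9.35%.

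Summed over their list, other targets of interferon-gamma were not lower in naïve T cells. In CD4 naïve cells the 14 genes of that list summed to 781 and 706 CPM (ratio 1.11, interval 1.05 to 1.17). Psmb8 alone held 1068 of their 2738 UMIs in the h219-LLG library and 843 of 2633 in the control library. In CD8 naïve cells the ratio of the sums was 1.12. Irf8, a lineage factor of myeloid and B cells (ratio 0.173), Cxcl10, a chemokine (0.209), and Cd274, encoding PD-L1 (0.660), were lower in CD4 naïve cells. They were 3 of 10 measured, against 5.98% of all genes. H2-Aa, an MHC class II chain of antigen-presenting cells (2.10, on 87 and 44 UMIs), was higher, 1 of 10 against 8.8%. Lyz2, given above, was also seen in more of these cells in the h219-LLG library. In CD8 naïve cells Cd274 (0.437) and Cxcl10 (0.508) were lower, 2 of 9 against 7.17% of all genes. Psmb9, an immunoproteasome subunit (1.66), and H2-Aa (1.65) were higher there, 2 of 9 against 8.08%. In Ly6c2 monocytes Cd274 (2.18), the peptide transporter Tap1 (1.85) and Cxcl10 (1.80) were higher, 3 of 9 against 9.35% of all genes. In C1q macrophages Ciita (4.03), Cxcl10 (2.11), Tap1 (1.67) and Tapbp (1.67) were higher, 4 of 10 against 15.8%. Cd274 (0.655) was lower there, 1 of 10 against 4.13%.

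Genes known for induction by type I interferon differed in the same direction as the GTPases in most of these gates. Their summed level in CD4 naïve cells was 276 CPM in the h219-LLG library and 535 CPM in the control library (ratio 0.515, interval 0.477 to 0.557). There 8 of 11 measured genes were lower, against 5.98% of all genes, led by Ifit1 (0.246), Ifit3 (0.318) and Isg15 (0.393). In CD8 naïve cells the ratio of the sums was 0.531, with 7 of 10 genes lower, against 7.17% of all genes. In Ly6c2 monocytes it was 2.20 with 13 of 14 genes higher, against 9.35% of all genes, led by Ifit2 (7.14), Ifit1 (6.13) and Usp18 (5.07). In C1q macrophages it was 2.39, above the 1.37 of the GTPases. There too 13 of 14 were higher, against 15.8% of all genes, led by Ifit2 (9.20), Rsad2 (8.85) and Mx1 (5.47). In experienced CD4 cells the list was at 1.54 while the GTPases were at 0.912, in B cells at 0.801 against 1.19, and in NK cells at 0.760 (interval 0.612 to 0.938) against 1.10.

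**Figure D5:**
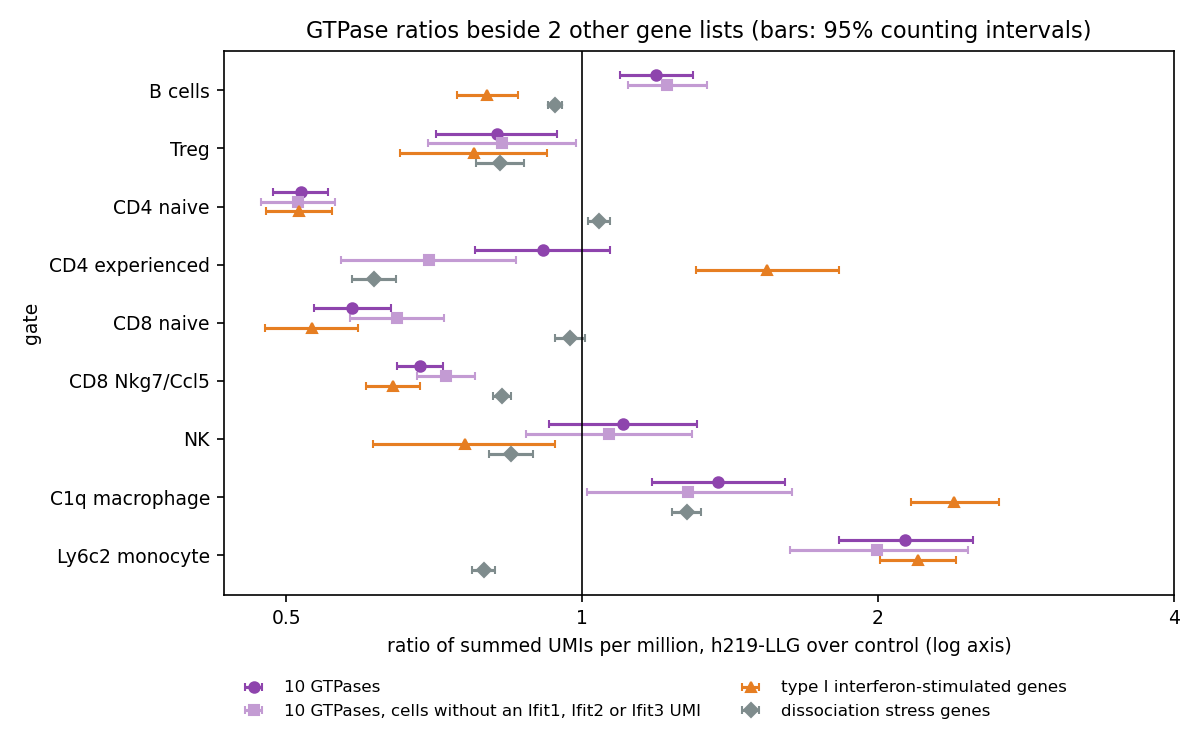
Ratio of summed CPM, h219-LLG over control (x axis, log scale), in the 9 large gates for the 10 GTPases in all cells (circles) and in cells without an Ifit1, Ifit2 or Ifit3 UMI (squares), for 16 type I interferon-stimulated genes (triangles) and for 12 dissociation stress genes (diamonds). Bars are 95% counting intervals. In CD4 naïve cells the first 3 series stand at 0.517, 0.514 and 0.515 and the stress genes at 1.04. A cell without an Ifit UMI is not shown to lack a type I interferon response.

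The GTPase differences were also measured in cells in which no UMI of Ifit1, Ifit2 or Ifit3 was seen. This split was chosen after the data were seen. UMIs of these genes were sparse: in CD4 naïve cells Ifit1 had 83 in 626 cells and 359 in 554 cells. A cell without such a UMI is therefore not shown to lack a type I interferon response. Deeper cells show one more easily, and depth differed between the libraries. In CD4 naïve cells these 453 and 295 cells had 356 and 693 CPM (ratio 0.514, interval 0.472 to 0.560), and the 173 and 259 cells with such a UMI had 499 and 854 CPM (ratio 0.584). In CD8 naïve cells the ratio was 0.648 without and 0.621 with an Ifit UMI. In Ly6c2 monocytes the 148 and 68 cells without an Ifit UMI had 267 and 134 CPM (ratio 2.00, interval 1.63 to 2.47) and those with one 929 and 546 CPM (ratio 1.70). In experienced CD4 cells the ratio without an Ifit UMI was 0.699 (interval 0.568 to 0.857), below the 0.912 of all cells of the gate. In C1q macrophages the ratio was 1.28 (interval 1.01 to 1.64) without and 1.05 (interval 0.852 to 1.29) with one. Cells with an Ifit UMI had the higher GTPase level in each library of all 9 gates.

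By the direction of the ratios alone, genes of the dissociation stress response, which tissue handling can induce, pointed the same way as the GTPases in 5 of the 9 large gates. These were regulatory T cells (ratio of sums 0.825), experienced CD4 cells (0.614), CD8 naïve cells (0.973), CD8 Nkg7/Ccl5 cells (0.829) and C1q macrophages (1.28). They pointed the other way in B cells (0.938), CD4 naïve cells (1.04), NK cells (0.847) and Ly6c2 monocytes (0.794). Some of these directions were not beyond counting error. The stress interval in CD8 naïve cells (0.938 to 1.01) and the GTPase intervals in experienced CD4 and NK cells included no difference. In CD4 naïve cells Junb held 7241 of 11684 stress UMIs in the h219-LLG library and 8057 of 11951 in the control library. There Hspa1b (0.388) and Fosb (0.666) were lower, 2 of 9 against 5.98% of all genes. Jun (2.16) and Fos (1.55) were higher, 2 of 9 against 8.8%. In CD8 naïve cells Hspa1b (0.108) was lower, 1 of 9 against 7.17%. Jun (2.75), Egr1 (2.15) and Fosb (1.73) were higher there, 3 of 9 against 8.08%. Hspa1a, a heat shock gene, had 95.6 and 1421 CPM in Ly6c2 monocytes and 327 and 194 CPM in C1q macrophages. The part of the stress genes in the GTPase levels was not tested.

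Over the 18 gate and library points, the genes whose level on log2 CPM was most like that of the summed GTPases, among 7542 genes with at least 500 UMIs, were Notch1 (Pearson r = 0.92), Irf1 (0.90), Aim1 (0.88), Stat5a (0.87), Smc1a (0.87), Fas (0.87), Zc3hav1 (0.87) and Slco3a1 (0.86). Irf1 is the factor named above that binds the ISRE. Among pairs of members, Igtp and Iigp1 were closest (r = 0.90), and Gbp3 and Gbp4 farthest (r = -0.36). The points share 2 libraries, and T cell gates make up 10 of the 18.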

How the data were processed

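Live CD45+ cells of B16 tumors were sequenced as 2 libraries, 1 per antibody. Per the labels, the authors aligned the reads to mm10 with Cell Ranger 5.0.0 and deposited raw UMI counts per gene and barcode; the human transgene is not among the mouse genes counted. A barcode entered with 200 or more genes, 500 or more UMIs and a mitochondrial share below 10%. Doublet scores came from simulated doublets on 30 principal components (scikit-learn 1.9.0), and 0.8% of cells per 1000 cells were removed (524 and 275 cells). Gates were set by marker UMIs; a gate for gamma-delta T cells was not used here, since its marker was not analysed here. Counts were summed over the cells of a gate. Levels carry exact Poisson intervals and ratios a binomial interval (SciPy 1.17.1), both at 95%; ratios are given for genes with at least 50 UMIs over both libraries, and 1.5 was the fold used to count genes. With 1 library per group no test was possible. Depth was 48834592 and 40339654 UMIs. The code was tested on simulated data.

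The members and gene lists were chosen with earlier results of these data known. By rule, the text names the members measured in each of the 9 large gates, of each other list at most the 3 highest and 3 lowest genes past the fold per gate, and the 8 genes most like the summed members. Further genes of those lists were named after their values were seen. Alternatives were other cell filters, no doublet removal, raised marker minimums, TMM (edgeR 4.0.16), median-of-ratios size factors, totals without the 50 most abundant genes, thinning, a mean over cells, leaving out the richest cell, leaving out cells with Ifit UMIs, minimums of 20 and 100 UMIs and a fold of 2. Results that rest on some single genes are not reported here.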

Additional observations from a re-analysis of the deposited data

Results flagged for a closer look

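The antibody ratio of the summed GTPases had opposite directions in monocytes and naïve T cells. The ratio in Ly6c2 monocytes (2.13) was 4.12 times that in CD4 naïve cells (0.517) and 3.65 times that in CD8 naïve cells (0.584). All 6 members with at least 50 UMIs in the monocytes were higher in the h219-LLG library, against 3066 of 5710 genes there. Members pass that minimum more easily where they are high, and the members below it are given above. All 10 were lower in both naïve T cell gates. In these, 4063 of 7292 genes (CD4) and 2992 of 5691 genes (CD8) had a ratio above 1. Under alternatives Gbp2, Gbp7 and Ifi47 in the monocytes, Gbp3 in CD4 naïve cells and Gbp2 in CD8 naïve cells turned direction. With 1 library per group the difference between cell types was not tested.

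The cells set aside for markers of more than 1 lineage, which enter no comparison, held GTPase UMIs too. The 144 cells of the h219-LLG library had 313 CPM (868 UMIs) and the 130 cells of the control library 279 CPM (624 UMIs), a ratio of 1.12 (interval 1.01 to 1.25).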

How the results depend on the processing

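Over 11 alternatives the summed ratio kept its direction in B cells (1.15 to 1.30), CD4 naïve cells (0.494 to 0.548), CD8 naïve cells (0.501 to 0.648), NK cells (1.03 to 1.24), C1q macrophages (1.27 to 3.46) and Ly6c2 monocytes (1.46 to 2.18), and in the CD8 Nkg7/Ccl5 gate (0.665 to 0.727). It turned in 1 of 11 in regulatory T cells and 2 of 11 in experienced CD4 cells. Of 733 alternative ratios of single members 679 lay within the counting interval of the main value, 44 outside it with the same direction, and 10 turned. With 200 to 2500 genes and under 5% mitochondrial UMIs the summed ratio was 1.30 in B cells, 1.10 in experienced CD4 cells, 3.46 in C1q macrophages and 1.46 in Ly6c2 monocytes, and Gbp5 in regulatory T cells (0.786) and Gbp2 (0.321) and Gbp7 (0.578) in Ly6c2 monocytes turned; this filter left 7 control monocytes. Thinned to 1000 UMIs, sums were 1.03 in regulatory T cells, 0.501 in CD8 naïve cells, 2.06 in C1q macrophages and 1.72 in Ly6c2 monocytes. Thinning turned Gbp3 in regulatory T cells (1.58) and CD4 naïve cells (1.48), Gbp5 in CD8 Nkg7/Ccl5 cells (1.21) and Ifi47 in Ly6c2 monocytes (0.458). Few UMIs were left by thinning, for all members together 76 and 18 in Ly6c2 monocytes. In C1q macrophages the sum was 1.72 without a mitochondrial limit and 2.10 as a mean over cells, which also turned Gbp5 in regulatory T cells (0.745), as did leaving out the richest cell (0.936). In cells without an Ifit UMI the sum was 0.699 in experienced CD4 cells, 0.648 in CD8 naïve cells and 0.727 in CD8 Nkg7/Ccl5 cells, and Gbp2 in CD8 naïve cells was 1.02. At a fold of 2, members higher were 0 of 8 in B cells (144 of all 8939 genes), 0 of 8 in regulatory T cells (96 of 3898), 0 of 5 in experienced CD4 cells (59 of 3271), 0 of 4 in NK cells (46 of 3891) and 2 of 6 in C1q macrophages (345 of 6294). Members lower were 0 in regulatory T cells (148 genes), 0 in experienced CD4 cells (77), 3 of 10 in CD8 naïve cells (92 of 5691) and 1 of 10 in CD8 Nkg7/Ccl5 cells (127 of 8489). At a minimum of 100 UMIs, 0 of 3 were higher and 2 lower in regulatory T cells (151 and 236 of 2167 genes), 0 of 2 higher in experienced CD4 cells (108 of 1779) and 0 of 3 lower in NK cells (150 of 2177). At 20 UMIs 3 of 9 were higher and 2 lower in experienced CD4 cells (960 and 606 of 5935) and 3 of 10 lower in C1q macrophages (482 of 8622). The cause of the other shifts was not tested. No paired analysis was possible because each group had 1 library, and no replicate could be left out.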

Other observations

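Cells outside the gates are given as values. The 1712 and 1393 kept cells that met no gate had 382 CPM of the 10 GTPases in the h219-LLG library and 592 CPM in the control library (ratio 0.646, interval 0.618 to 0.675). Cells with 10% or more mitochondrial UMIs had 365 and 320 CPM (ratio 1.14, interval 0.977 to 1.33), and barcodes removed as likely doublets 350 and 449 CPM (ratio 0.780, interval 0.732 to 0.831).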
